A study of Mus musculus with 2 samples.

Results

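IAP internal sequences are the stretches between the 2 LTRs of an intracisternal A particle element, a mouse endogenous retrovirus. Their members here were the fragments that the study's annotation lists as IAP sequence of neither a solo, a 5′ nor a 3′ LTR, with at least 20 methylation calls in both the sperm and the tail library. Of 955 internal fragments in the annotation used, 364 qualified, from 260 elements (317 fragments on chromosome 1 and 47 on chromosome 10). They stand among 1129 annotated fragments that passed the same minimum, the other 765 being LTRs. The libraries were made by TEPBAT, a bisulfite method in which random priming is followed by PCR from a primer inside the LTR. There was 1 sperm DNA library and 1 tail DNA library, both from the same adult male C57BL/6J mouse. Sperm DNA comes from 1 germ cell type, whereas a tail holds several somatic cell types, and the tissue of a library and the preparation of that library cannot be told apart. With 1 library per tissue there was no replicate, so each test compared the 2 libraries and not the tissues.

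A complete IAP carries, from the 5′ LTR inward, the primer binding site at which a cellular tRNA starts reverse transcription, then the gag, pro and pol coding sequence, and a polypurine tract just before the 3′ LTR. Most mouse copies are held silent by DNA methylation together with repressive chromatin. IAPs are known for partial resistance to the loss of methylation that sweeps the genome in the early embryo and in germ cells. IAPEz-int is the internal sequence of the youngest and most mobile copies, and IAPEy-int, IAPEY3-int, IAPA_MM-int, IAPLTR3-int and IAPLTR4_I are the internal sequences of related groups.

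The sequences that the libraries read first on the internal side of the 5′ LTR are the primer binding sites, and these are shown because many of the internal calls lie in or next to them. A search for TGG and GGGA separated by 11 to 13 bases, on the sense strand in the first 60 bases after the LTR, found a match beside 221 of the 239 measured 5′ LTRs (92.5%) and beside 271 of all 313 annotated 5′ LTRs (86.6%). The match is a description of letters and was not tested for function. The 5 most common IAPEz-int matches and the IAPEy-int match follow, with CpGs in capitals, on the sense strand of the element in GRCm38 (mm10).
IAPEz-int site in 83 copies, for example chr1:5811091-5811108 (minus strand): tggtgcCGaattcCGgga
IAPEz-int site in 49 copies, for example chr1:8662177-8662194 (minus strand): tggtgcCGaaaccCGgga
IAPEz-int site in 20 copies, for example chr1:17957095-17957112 (plus strand): tggtgctgaaaccCGgga
IAPEz-int site in 16 copies, for example chr1:5567271-5567288 (minus strand): tggtgctgagaccCGgga
IAPEz-int site in 15 copies, for example chr1:4567148-4567165 (minus strand): tggtgctgaaatcCGgga
IAPEy-int site in 5 copies, for example chr1:48741565-48741584 (minus strand): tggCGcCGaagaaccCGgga
The IAPEz-int sites carry 1 or 2 CpGs and the IAPEy-int site carries 3. The IAPEz-int site is the one at which the phenylalanine tRNA is known to pair.

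At the other end, the polypurine tract closes the internal sequence, and it is shown because it has no CpG and so no methylation value. The string GGGGG stood in the last 30 bases before the 3′ LTR in 159 of 162 measured copies (98.1%), against 287 of all 309 annotated 3′ LTRs (92.9%), and none of the 162 had a CpG there.
3′ end in 52 copies, for example chr1:5804689-5804718 (minus strand): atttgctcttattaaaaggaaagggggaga
3′ end in 20 copies, for example chr1:19629171-19629200 (plus strand): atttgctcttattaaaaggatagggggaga
3′ end in 20 copies, for example chr1:7611804-7611833 (plus strand): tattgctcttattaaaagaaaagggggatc

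Internal sequence was read mostly where it lay near an LTR. Membership reached 74 of 81 fragments that adjoin both LTRs of their element, 175 of 230 that adjoin the 5′ LTR alone, 91 of 218 that adjoin the 3′ LTR alone, 17 of 345 that adjoin neither, and 7 of 81 in elements with no annotated LTR. Here a fragment adjoins an LTR when at most 100 bp lie between them. Of the 24 members in the last 2 classes, 9 lay within 2 bp of an LTR of a different element and 14 more within 400 bp of some LTR, the exception being the IAPLTR4_I fragment of IAP 543. By repeat name, members were 335 of 631 IAPEz-int, 12 of 65 IAPEy-int, 7 of 10 IAPA_MM-int, 5 of 81 IAPEY3-int, 3 of 16 IAPLTR4_I and 2 of 17 IAPLTR3-int. None of the 50 IAP-d-int, 35 IAP1-MM_I-int, 33 IAPEY4_I-int and 14 IAPEY5_I-int fragments qualified. No call at all fell in 404 of the 955 fragments. At the call minimum, the members with fewest calls were IAPEz-int fragments of IAP 196 (20 calls in sperm and 65 in tail, levels 0.378 and 0.648) and IAP 424 (20 and 31 calls, levels 0.958 and 0.921). Just outside it lay IAPEz-int fragments of IAP 268 (22 and 19 calls, levels 0.958 and 0.917) and IAP 280 (391 and 18 calls, levels 0.499 and 0.578).

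The members drew 538480 calls in sperm and 228081 in tail, with a median of 769 and 383.5 calls per fragment. The median member was 1059 bp long and held 23 CpGs, and calls fell on a median of 10 positions in sperm and 9 in tail, each strand of a CpG counted as its own position. A fragment's value therefore describes its end beside the LTR and not its whole length. Within 300 bp of the 5′ LTR, 99.9% of sperm calls and 99.7% of tail calls came from the sense strand. Within 300 bp of the 3′ LTR, 99% and 99.3% came from the antisense strand. Of the calls assigned to the 5′ LTR, 50% lay within 70 bp of it in sperm and 61 bp in tail. Of those assigned to the 3′ LTR, 50% lay within 159 bp and 160 bp. The reads carry no molecular identifiers, and PCR copies of a molecule cannot be told from separate molecules. Calls at several CpGs of the same read were also counted separately. Intervals and p-values here therefore cover counting error only, as if each call were independent. Intervals of summed calls are thus too narrow and p-values too small. As a check of the labels, calls were summed over 15 promoters whose maternal copy alone is methylated in somatic cells, so that methylated and unmethylated calls should be about equal in tail and methylated ones near absent in sperm. Of 178 such calls in sperm 2 were methylated (1.12%, exact 95% interval 0.136 to 4.0), from 5 genes with a call. Of 245 in tail 23 were methylated (9.39%, with an interval of 6.04 to 13.8), from 8 genes. The tail share was above the sperm share but well under an equal share, so the tail library did not meet this check, and the reason was not tested.

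Internal sequence was less methylated in the sperm library than in the tail library. The methylation level of a fragment, a fraction from 0 to 1, averaged the levels of those CpG positions that had a call. Its median over members was 0.761 in sperm (quartiles 0.682 and 0.818) and 0.839 in tail (quartiles 0.777 and 0.893). The sperm level was the lower one in 273 of 364 members (75%), with a median difference, sperm minus tail, of -0.07. The LTRs measured in both libraries had medians of 0.874 in sperm and 0.902 in tail, with a median difference of -0.03. The 364 pairs of levels had a Spearman correlation of 0.251, across fragments that share 2 libraries and vary in call number.

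High methylation, a level above 0.8, was found in 118 sperm members (32.4%, exact 95% interval 27.6 to 37.5) and 241 tail members (66.2%, interval 61.1 to 71.1). The same class held 591 of the 765 LTRs in sperm (77.3%) and 656 in tail (85.8%). The intervals above treat fragments as independent draws, though the 364 fragments come from 260 elements and share 1 library per tissue. They do not compare the tissues. Low methylation, at or under 0.2, was rare, with 3 members in sperm (IAP 591, IAP 390 and IAP 280, the last from 1 position with 25 calls) and 1 in tail (IAP 433), and no member was low in both libraries. High levels in both libraries were found in 91 members. Most sperm members were therefore of medium level, and most tail members of high level.

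**Figure D1:**
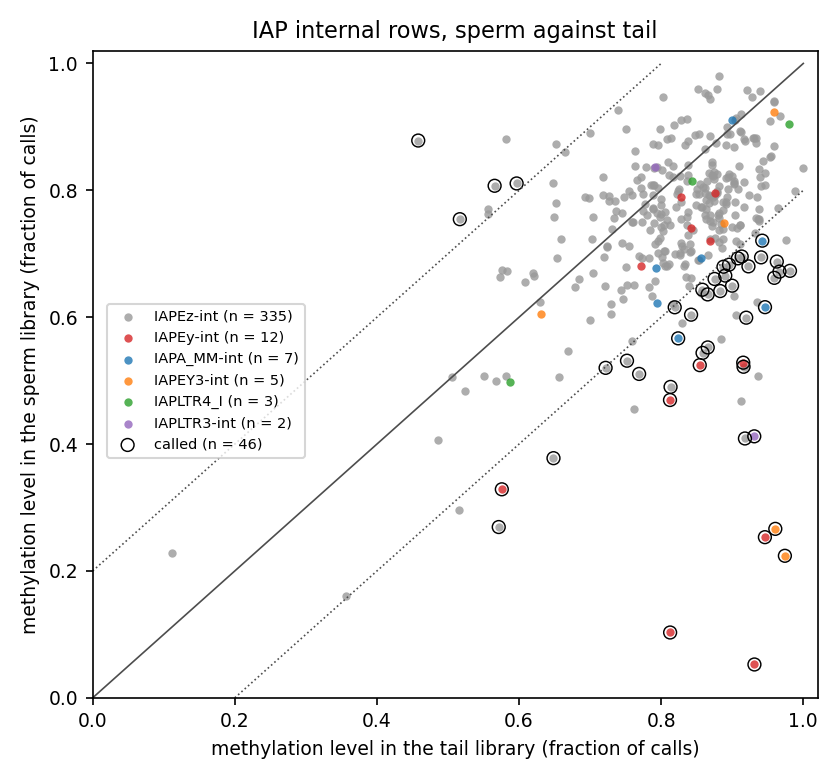
Methylation level of each of the 364 internal fragments in the tail library (x axis, fraction of calls) and the sperm library (y axis, fraction of calls), colored by repeat name, with called fragments circled. The solid line marks equal levels and the dotted lines a difference of 0.2, and 42 of the 46 circled fragments lie below the lower dotted line or on it.

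Each fragment was compared between the libraries with Fisher's exact test on its summed methylated and unmethylated calls, two-sided, with Benjamini-Hochberg adjustment over all 1129 fragments. A fragment was called with an adjusted p under 0.05, a difference of at least 0.2 in level and the same direction in summed calls. In sperm 42 members were called lower (11.5% of members, against a percentage called of 7.44 over all 1129 fragments). Of these calls, 41 were among the 317 members on chromosome 1 (12.9%) and 1 among the 47 on chromosome 10 (2.13%). With chromosome 1 tested alone, the percentage called over all its fragments was 8.42. The difference between the chromosomes was not tested. In tail 4 members were called lower (1.10%, against 1.15 over all). The share called lower in sperm stood above the background mostly through the 29 members that are not IAPEz-int, of which 13 were called (44.8%). The share called lower in tail did not stand above it. The adjusted p alone was under 0.05 for 229 members, most of them with differences smaller than 0.2.

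IAPEy-int adjoins IAPEY_LTR and IAPEY2_LTR copies, which the forward amplification primer matches weakly by the study's own description. It had the lowest sperm median of the repeat names. All 12 members were lower in sperm than in tail, and 7 of them were called. Their sperm levels ran from 0.053 to 0.795 with a median of 0.526, and their tail levels from 0.576 to 0.946 with a median of 0.848. Of the 10 members whose nearest LTR was IAPEY_LTR, 7 were called, with a median of 0.497 for sperm and 0.841 for tail. The 2 members beside IAPEY2_LTR, IAP 224 and IAP 592, had sperm levels of 0.740 and 0.795 and tail levels of 0.842 and 0.875, and neither was called. So the spread among IAPEy-int fragments was wider in sperm than in tail.

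The IAPEy-int fragment of IAP 591 (chr1:147943852-147944129, minus strand, intergenic) had the largest difference of all members. It lies between an annotated 5′ LTR and 3′ LTR of its own and holds 12 CpGs. Its level was 0.053 in sperm over 936 calls and 0.931 in tail over 984 calls, a difference of -0.88. From summed calls the sperm level was 0.0641 (exact 95% interval 0.0493 to 0.0817) and the tail level 0.972 (interval 0.959 to 0.981). Its 12 covered positions ran from 0 to 0.146 in sperm and from 0.706 to 1 in tail, so the ranges of the 2 libraries did not overlap. Its 5′ LTR was at 0.025 in sperm and 0.983 in tail.

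The primer binding site of IAP 591 is printed with the bases around it (CpGs in capitals) because its first 2 CpGs carry the contrast at the highest depth of the fragment.
IAP 591, first 30 internal bases, chr1:147944100-147944129 (minus strand): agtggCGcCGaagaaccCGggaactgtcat
The first CpG of this stretch had no methylated call among 195 in sperm, which allows a share of up to 1.54%, and a level of 0.983 over 238 calls in tail. The second had levels of 0.037 over 190 calls in sperm and 0.991 over 231 calls in tail. These CpGs thus stood at opposite ends of the scale in the 2 libraries. The third CpG had 22 calls in sperm, with a level of 0.045, and 2 calls in tail, both methylated.

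The IAPEy-int fragment of IAP 390 (chr1:101092185-101093245, minus strand, intergenic) was the other IAPEy-int member under 0.2 in sperm. Its level was 0.103 in sperm over 1421 calls and 0.813 in tail over 239 calls (adjusted p 6.12e-132, Fisher's exact test). Its 5′ LTR was similarly low in sperm, at 0.037 in sperm and 0.815 in tail. Its 3′ LTR was at 0.818 in sperm and 0.850 in tail, over 101 and 43 calls. The low sperm level was therefore measured at the 5′ LTR and the internal end beside it, and not at the 3′ LTR.

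The other called IAPEy-int fragments covered the range in between. IAP 471 was at 0.253 in sperm and 0.946 in tail. IAP 217 had 0.528 and 0.915, IAP 558 had 0.469 and 0.812, and IAP 318 had 0.329 and 0.576. IAP 457, with the most calls of this repeat name over both libraries, had 0.524 over 1652 calls in sperm and 0.854 over 2472 calls in tail. Not called were IAP 114 with levels of 0.790 and 0.827, IAP 162 with 0.720 and 0.868, and IAP 800 with 0.680 and 0.772. In the 5 copies with the printed IAPEy-int primer binding site, the first CpG had a median level of 0.288 in sperm and 0.926 in tail, and the second 0.286 and 1, among positions with at least 5 calls.

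**Figure D2:**
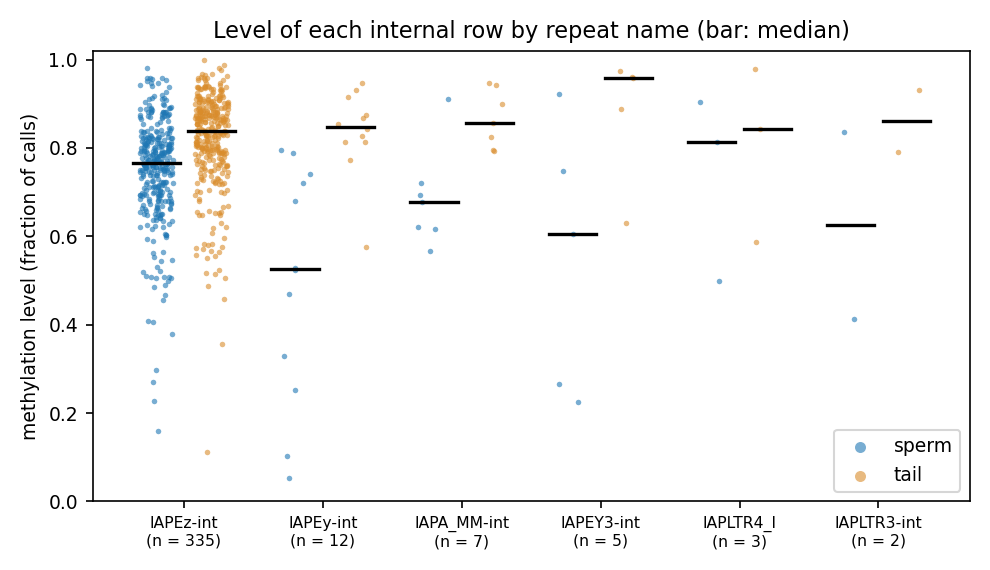
Methylation level (y axis, fraction of calls) of each internal fragment in the sperm (blue) and tail (orange) libraries by repeat name, with a bar at the median. The sperm median is 0.526 for IAPEy-int and 0.765 for IAPEz-int, while the tail medians of these names are 0.848 and 0.838.

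IAPEY3-int had 5 members and 2 calls, both lower in sperm. The first was the fragment of IAP 653 at chr1:166576953-166581132 (plus strand, intergenic). Its level was 0.224 in sperm over 659 calls and 0.974 in tail over 1075 calls, from 3 and 5 positions. In sperm 1 position had a single unmethylated call, and in tail 3 positions had 3 calls each. From summed calls the levels were 0.352 and 0.878, and the difference was -0.53, against -0.75 from the mean over positions. This fragment reaches the 5′ LTR of IAP 654, an IAPLTR2b copy lying between fragments of IAP 653. The LTRs of IAP 653 itself had no call. The deepest position of the fragment had a level of 0.376 over 465 calls in sperm and 0.870 over 1011 calls in tail. The adjoining IAPLTR2b LTR was at 0.912 in sperm and 0.973 in tail, and the IAPEz-int fragment just inside this LTR had 0.511 and 0.769. In sperm the internal sequence on both sides of this LTR was thus lower than the LTR. A second IAPEY3-int fragment of IAP 653, farther 3′, had 0.748 over 12163 calls in sperm and 0.889 over 7731 calls in tail and was not called.

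The IAPEY3-int fragment of IAP 550 (chr1:139783731-139784122, plus strand) had a level of 0.266 in sperm over 164 calls and 0.961 in tail over 106 calls (adjusted p 3.80e-38, Fisher's exact test). Its 5′ LTR, an IAPEY3_LTR copy, had levels of 0.539 over 130 calls and 0.762 over 23 calls. The 3′ LTR of this element, an IAPEY2_LTR copy, was at 0 over 40 calls in sperm and 1 over 4 calls in tail. The remaining IAPEY3-int members were not called, with levels of 0.606 and 0.631 for IAP 25, and 0.923 and 0.959 for IAP 330. The 5 fragments therefore ranged from 0.224 to 0.923 in sperm.

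IAPA_MM-int had 3 of 7 members called lower in sperm, with a median of 0.677 for sperm and 0.856 for tail. The fragment with the most calls lies in an intron of Catspere2, which encodes a subunit of the calcium channel of the sperm tail. Its level was 0.721 in sperm over 12572 calls and 0.942 in tail over 3263 calls. From summed calls the difference was -0.18, under the minimum, so this call depends on the level being a mean over positions. The fragments of IAP 53 (0.616 and 0.946) and IAP 230 (0.567 and 0.824) were also called. IAP 434 was not called, with levels of 0.911 and 0.899.

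IAPLTR3-int had 2 members that differed from each other. The fragment of IAP 358 (chr1:95804671-95806583, plus strand, intergenic) had a level of 0.412 in sperm over 885 calls and 0.931 in tail over 1771 calls, and was called (adjusted p 1.40e-51, Fisher's exact test). The sperm mean included 2 positions with 1 unmethylated call each. From summed calls the levels were 0.640 and 0.893, and the difference was -0.25, against -0.52 from the mean over positions. Its 3′ LTR, an IAPLTR2b copy, had levels of 0.854 and 0.952. The fragment of IAP 713, in an intron of Syt14, a synaptotagmin gene, was at 0.837 over 2297 calls and 0.791 over 2776 calls and was not called, and from summed calls it was at 0.892 and 0.955. None of the 3 IAPLTR4_I members was called, with levels of 0.814 and 0.844 for the deepest, which adjoins the 5′ LTR of IAP 840.

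IAPEz-int made up 335 of the members and was lower in sperm in 246 of them. Its medians were 0.765 in sperm (range 0.160 to 0.980) and 0.838 in tail (range 0.111 to 1). Sperm was called lower in 29 fragments (8.66%), close to the 7.44% over all 1129, and tail in 4 (1.19%). The member with the most calls over both libraries lies beside the 5′ LTR of IAP 309 in an intron of the lincRNA gene Gm29536. It had 0.836 over 14552 calls in sperm and 0.794 over 5593 calls in tail, and was not called. From summed calls, which the test compares, the levels were 0.834 and 0.826 (adjusted p 0.225, Fisher's exact test). The other internal end of the same element, beside the 3′ LTR, had levels of 0.484 over 160 calls and 0.524 over 321 calls. In both libraries the 5′ end of this element had the higher level. The 3′ end had 5 covered positions in sperm and 6 in tail. A single position there held 66 of the 94 unmethylated sperm calls and 137 of the 174 in tail. That position was at 0.015 in sperm and 0 in tail. Another had 0.815 over 65 calls in sperm and 0.872 over 133 in tail. The order of the ends thus rested on few positions.

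The 4 members called lower in tail were all IAPEz-int. The fragment of IAP 106 (chr1:23301468-23302730, plus strand, intergenic) had a level of 0.878 in sperm over 107 calls and 0.458 in tail over 164 calls (adjusted p 4.72e-21, Fisher's exact test). It adjoins the 5′ LTR of IAP 105, itself at 0.887 in sperm and 0.744 in tail. Beside the 3′ LTR of IAP 581 the fragment had levels of 0.807 and 0.566 over 2330 and 1900 calls, from 3 positions in each library. IAP 352 was at 0.811 and 0.597, and IAP 816 at 0.754 and 0.517 over 172 and 22 calls. From summed calls the differences for IAP 581 and IAP 352 were 0.09 and 0.05, both under the minimum, so these 2 calls depend on the mean over positions. Over positions with at least 5 calls, the difference for IAP 352 was 0.02.

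Some IAPEz-int fragments were near or under 0.5 in both libraries. At IAP 90 (chr1:18519785-18520860) the level was 0.505 in each. This mean rested on 2 positions in sperm and 4 in tail, and summed calls gave 0.120 in sperm and 0.437 in tail. IAP 407 was at 0.406 over 987 calls in sperm and 0.487 over 479 calls in tail, but summed calls gave 0.650 and 0.451, the opposite order, since a single position held 976 of the sperm calls. The lowest tail level, 0.111, was that of the IAP 433 fragment, with 0.228 in sperm, over 70 and 102 calls. A fragment of IAP 178 in an intron of Tsga10, a testis-expressed gene, had levels of 0.467 and 0.912 yet 0.889 and 0.851 from summed calls, and was not called. The values of IAP 90, IAP 407 and IAP 178 thus moved with the weight given to single positions. Among members over 1000 bp from an LTR of their own element, the 3 with the most calls in their less covered library were at 0.824 and 0.838 (IAP 726), 0.604 and 0.842 (IAP 431) and 0.224 and 0.974 (IAP 653, above). Each of them adjoined an LTR of a different element. The fragment of IAP 431 lost its call when 20 bp were taken off each end, with a difference of -0.13.

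Along the internal sequence the level differed with distance from the LTR, which is given as a description. At the 5′ end, among positions that had 5 or more calls in each library, the mean level was 0.778 in sperm and 0.889 in tail at 1 to 50 bp, and 0.62 and 0.757 at 251 to 300 bp. The farthest bin held 33 positions and the nearest 857. In the 127 fragments with positions both within 100 bp and beyond it up to 300 bp, the outer part was lower in 84 fragments in sperm and in 87 in tail, with median differences, outer minus inner, of -0.08 and -0.07. At the 3′ end, no bin within 50 bp of the LTR could be described. The mean level was lowest at 151 to 200 bp, 0.639 in sperm and 0.766 in tail over 185 positions. It was highest at 201 to 250 bp, 0.887 and 0.911 over 102 positions. Many positions of these 2 bins were the same few CpGs in different copies. The CpGs at 155 and 160 bp were measured in 56 and 57 copies, and those at 234 and 241 bp in 23 and 40. These bins thus largely describe single CpGs and not distance alone. The sperm mean lay below the tail mean in all 10 described bins of the 2 ends. The order was not stable near the 3′ LTR, where the medians at 51 to 100 bp were 0.883 in sperm and 0.877 in tail. With at least 20 calls per position, the means at 101 to 150 bp were 0.715 and 0.705 over 23 positions.

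**Figure D3:**
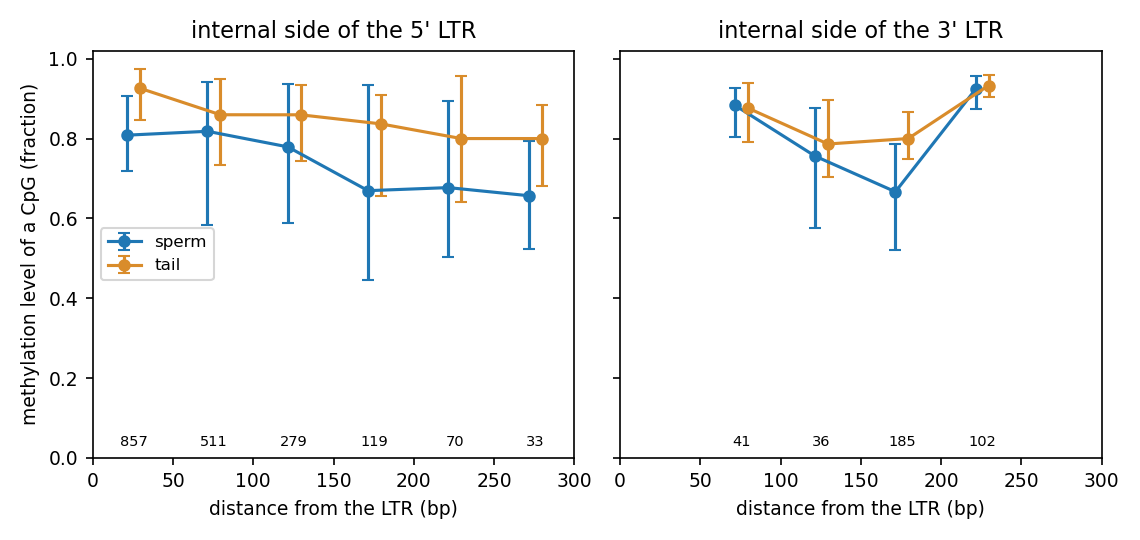
Methylation level of single CpG positions (y axis, fraction) by distance from the 5′ LTR (left) and the 3′ LTR (right) in bins of 50 bp (x axis, bp), for sperm (blue) and tail (orange). Points are medians over positions, bars run from the lower to the upper quartile, and the numbers above the axis count positions. At 151 to 200 bp from the 3′ LTR the medians are 0.667 in sperm and 0.80 in tail.

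Because IAPEz-int copies share much of their sequence, CpGs at a fixed distance from the LTR could be compared from copy to copy. These copies share sequence and libraries and are not replicates. At least 20 copies had 5 or more calls in each library at 16 distances from the 5′ LTR and at 6 distances from the 3′ LTR. Single positions were then tested between libraries in the same way as fragments, over all 7175 positions with at least 20 calls in both libraries in any annotated fragment. This test was added after the data were seen. Of 1554 positions at internal ends, sperm was called lower at 359 (23.1%) and tail at 93 (5.98%), against percentages called of 13.0 and 4.35 over all 7175 positions.

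A single CpG was picked out after its values were seen. It lies 160 bp before the 3′ LTR, and its neighbor lies 155 bp before it, both read on the antisense strand. The 30 bases that hold both CpGs are shown because they separate in the 2 libraries though they are 5 bp apart. In 28 of 39 copies with both CpGs measured, the sequence was the following, here from the element IAP 22, sense strand, with CpGs in capitals and the 160 bp CpG first.
Bases 172 to 143 before the 3′ LTR, chr1:6430860-6430889 (minus strand): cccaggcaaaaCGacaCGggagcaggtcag
At the 160 bp CpG sperm was called lower in 29 of 43 copies (67.4%) and tail in none. At the 155 bp CpG sperm was called lower in 1 of 43 copies and tail in 2.

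In the 39 copies with at least 20 calls at both CpGs, the 160 bp CpG had a median of 0.601 in sperm (range 0.336 to 0.848) and 0.838 in tail (range 0.750 to 0.957), lower in sperm in 38 copies. The 155 bp CpG had a median of 0.779 in sperm (range 0.531 to 0.951) and 0.784 in tail (range 0.477 to 0.922), lower in sperm in 22 copies. Within the sperm library the 160 bp CpG was below its neighbor in 38 of 39 copies, and within the tail library in 7. Median calls at the 160 and 155 bp CpGs were 92 and 113 in sperm and 107 and 142 in tail. Both CpGs were thus read at similar depth.

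Single copies showed the same order. In IAP 328 the 160 bp CpG had levels of 0.336 over 250 calls in sperm and 0.935 over 509 calls in tail, while the 155 bp CpG had 0.874 and 0.872. In IAP 631 the values were 0.464 over 1006 calls and 0.830 over 820 calls, against 0.787 and 0.796 at the neighbor. In IAP 595, the exception, the 160 bp CpG had 0.848 in sperm and 0.783 in tail over 33 and 23 calls. By the adjoining 3′ LTR, 24 of 27 copies beside IAPLTR1a_Mm were called lower in sperm at 160 bp, with medians of 0.512 and 0.826. Beside IAPLTR1_Mm 4 of 13 were called, with medians of 0.719 and 0.849. The difference between these LTR subfamilies was not tested.

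**Figure D4:**
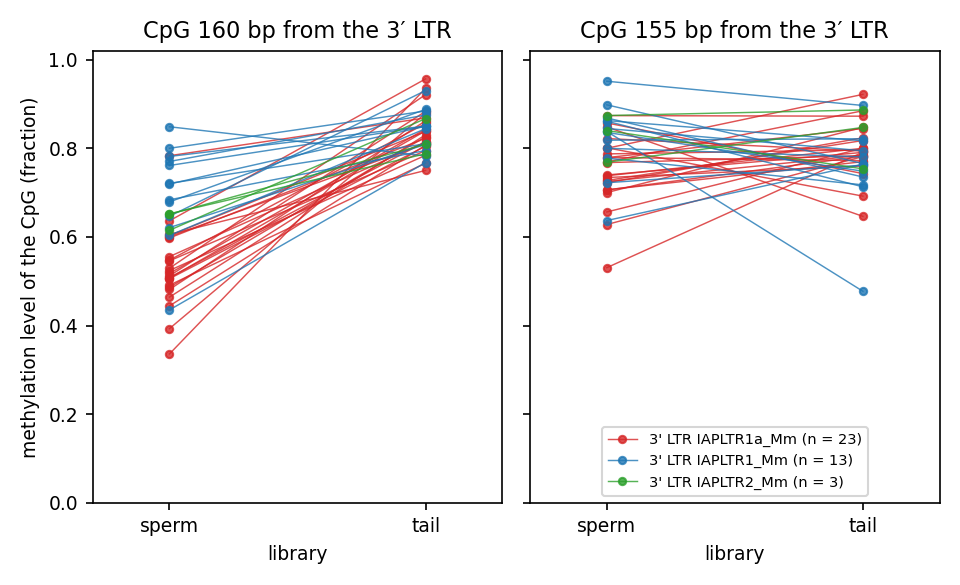
Methylation level (y axis, fraction) of the CpGs 160 bp (left) and 155 bp (right) before the 3′ LTR in the sperm and tail libraries (x axis) for 39 IAPEz-int copies, each a line colored by the subfamily of its 3′ LTR. At 160 bp 38 lines rise from sperm to tail, and at 155 bp 22 do.

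At the 5′ end the conserved CpG with the lowest sperm median lay 77 bp after the LTR. In 30 copies with at least 20 calls its sperm median was 0.544 and its tail median 0.714, and 6 copies passed as lower in sperm and none as lower in tail. Its sperm median was the lowest among the conserved CpGs with 20 such copies, and in tail only the CpG at 61 bp, with 0.704 over 20 copies, was lower. The surrounding sequence is shown for the 25 of 30 copies that share it, with CpGs in capitals and the CpG at 77 bp as the first of them.
Bases 63 to 92 after the 5′ LTR, for example chr1:6168525-6168554 (plus strand): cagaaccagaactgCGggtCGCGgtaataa
The CpGs at 16 and 21 bp, inside and just after the primer binding site, were called lower in sperm in 16 of 95 (16.8%) and 27 of 100 copies (27%). Of these CpGs, that at 16 bp and that at 77 bp (20%) thus lay under the 23.1% of all internal-end positions. The medians of the CpGs at 16 and 21 bp were 0.793 and 0.786 in sperm against 0.927 and 0.941 in tail. The CpG at 9 bp, the first of the primer binding site, had 0.884 in sperm and 0.890 in tail over 65 copies, where 5 copies passed as lower in sperm and 7 as lower in tail.

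The values of that first CpG are given for the 2 main forms of the primer binding site. In the form tggtgcCGaattcCGgga, printed above, the first CpG had a median of 0.856 in sperm and 0.931 in tail over 26 copies with at least 20 calls, lower in sperm in 22. In the form tggtgcCGaaaccCGgga it had 0.887 in sperm and 0.821 in tail over 29 copies, lower in sperm in 12. The second CpG was lower in sperm in both forms, in 34 of 37 and in 28 of 33 copies, with medians of 0.804 and 0.775 in sperm and 0.927 and 0.931 in tail. The forms also differ in the LTR beside them, IAPLTR1a_Mm being the most frequent for the first (49 of 83 copies) and IAPLTR2a2_Mm for the second (18 of 49). The difference between the forms was not tested, and form and LTR subfamily cannot be told apart here.

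Internal ends were less methylated than the LTR they adjoin. In sperm, the internal part was below the LTR in 303 of 378 pairs (80.2%), with medians of 0.763 and 0.865 and a median difference, internal minus LTR, of -0.09. In tail it was below in 271 of 386 pairs (70.2%), with medians of 0.851 and 0.908 and a median difference of -0.05. Tested within each library by Fisher's exact test as above, the internal part was called lower in 39 pairs in sperm (10.3%) and higher in 3. Over all 742 pairs of element parts in sperm, 5′ against 3′ LTR pairs included, the percentages called were 6.87 and 2.43. In tail 28 pairs were called lower (7.25%) and 3 higher, against 4.51 and 2.25 over 754 pairs. The ends beside the 5′ and the 3′ LTR had similar values in sperm, with median differences of -0.08 and -0.10. Fragments that adjoin the 3′ LTR alone had a median of 4 covered positions in sperm, against 11 for the 5′ LTR alone. The value at the 3′ LTR thus rests on fewer CpGs.

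The largest called gap in sperm was at the IAPEy-int fragment of IAP 318, with 0.329 against 0.937 in its 5′ LTR, over 61 and 59 calls. At IAP 645, an IAPEz-int fragment had 0.546 over 1982 calls, from 4 internal positions, against 0.914 over 67097 calls in its 3′ LTR. The CpGs at 160 and 155 bp held 842 and 1091 of these internal calls, at 0.508 and 0.801. The other positions had few calls but equal weight in the mean. At IAP 607 the level was 0.335 against 0.730, from 1 internal position. In tail, IAP 450 had 0.541 over 1404 calls against 0.929 over 7901 calls in its 5′ LTR. The few pairs called the other way included IAP 397 in tail, with 0.946 inside and 0.623 in the 5′ LTR. The low sperm fragments of IAP 591 and IAP 390 were not among these calls, and their 5′ LTRs were also under 0.2.

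**Figure D5:**
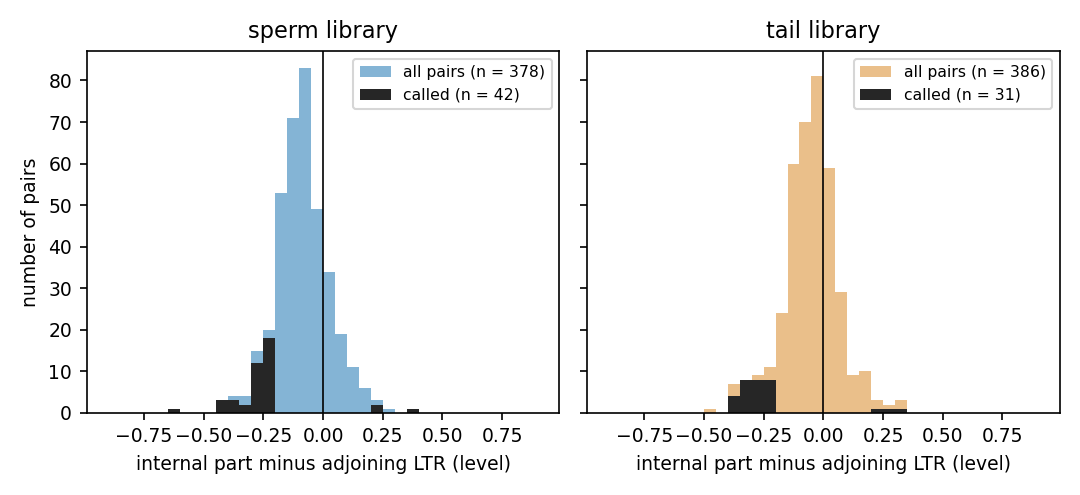
Number of pairs (y axis) by the level of the internal part minus that of the adjoining LTR (x axis, difference of fractions, bins of 0.05) in sperm (left) and tail (right), with called pairs in black. In sperm 303 of 378 pairs lie below 0 and in tail 271 of 386.

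The 2 internal ends of the same element were not ordered. In sperm the 5′ end was below the 3′ end in 57 of 117 elements, with medians of 0.758 and 0.756. It was called lower in 6 (5.13%) and higher in 7 (5.98%), against 6.87% and 2.43% over all 742 pairs of element parts. In tail it was below in 65 of 125 elements, with medians of 0.845 and 0.859. There it was called lower in 5 (4%) and higher in 5 (4%), against 4.51% and 2.25% over all 754 pairs. The sperm levels of the 2 ends had a Spearman correlation of 0.053 across 117 elements, and the tail levels -0.03 across 125 elements, points that share a library but are read from opposite strands.

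Set against the genomic sequence on the outer side of the same LTR, within 300 bp, internal ends had no common direction in sperm. The internal end was called lower in 27 of 155 pairs (percentage called 17.4) and higher in 34 (21.9). In tail it was called lower in 13 of 149 pairs (8.72) and higher in 32 (21.5). At the 3′ LTR the internal end was below the flank in 43 of 67 pairs in sperm and in 23 of 67 in tail, with median differences, internal minus flank, of -0.08 and 0.09. From summed calls these medians were -0.12 and 0.02. At the 5′ LTR it was below in 46 of 88 pairs in sperm and 43 of 82 in tail. The flank differs in sequence from element to element, whereas the internal end is repeat sequence.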

How the data were processed

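Bisulfite-treated DNA of sperm and tail from 1 mouse was read by TEPBAT. The authors removed primer, tetramer and low-quality bases, mapped the pairs to mm10 with Bismark (version not given in the sources used here) and dropped pairs with several matches. They deposited 3 values for each CpG position and strand, namely a count of methylated calls, a count of unmethylated calls and the percent methylated. Only the 2 deposited counts entered the levels and tests, and the deposited percent was left aside. The sperm file held 754507 positions and the tail file 959191, with medians of 2 and 1 calls per position. All positions on chromosomes 1 and 10 fell on CpGs of GRCm38. Fragments came from the study's annotation of IAP sequence, of which the first 1997 of 28601 rows were used, so other chromosomes were not analysed here. Row starts were read as 0-based. Genes came from GENCODE M21.

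Levels, Fisher's exact tests, call rules and exact (Clopper-Pearson) intervals are as described with the results. The minimum was 20 calls, and positions in 2 fragments were counted once at the ends. The test was tested on simulated data. Members, lists and tests were chosen with earlier results of these data known. Fragments named are the 5 largest called differences in each direction and the 5 lowest of each library (both among members with at least 100 calls in each library), the deepest of each repeat name, up to 3 over 1000 bp from an LTR of their element, members at the call minimum, and those under 0.5 within a gene. Other fragments and the CpGs at 160 and 77 bp were named after their values were seen. Software was pandas 2.3.3, numpy 2.4.6, scipy 1.17.1 and matplotlib 3.10.9 under Python 3.11.15.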

Additional observations from a re-analysis of the deposited data

Results flagged for a closer look

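Fragments measured in only 1 library were outside every comparison and still carried methylation signal. In sperm alone, 20 internal fragments had at least 20 calls, with a median level of 0.803 and a range of 0.056 to 1. In tail alone, 22 fragments did, with a median of 0.866 and a range of 0.317 to 1.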

How the results depend on the processing

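No paired analysis was possible because each tissue had 1 library. Across the alternatives, 78 recomputed counts and bin means stayed within 1.5 times the reported count or within the spread of the bin, and 30 did not. With a minimum difference of 0.1, 107 members passed as lower in sperm (29.4%, against 21.4% over all fragments) and 12 as lower in tail. With 0.3, 18 passed as lower in sperm (4.95%, against 2.83% over all fragments) and 1 as lower in tail. Among members touching an LTR of their own element, a setting chosen after seeing the data, 2 were called lower in tail. Members with a low level numbered 6 in sperm and 2 in tail from summed calls, 5 and 2 from positions with at least 5 calls, 2 in tail from positions shared by the libraries, and 0 in tail at 100 calls. With class limits of 0.3 and 0.9, 9 were low in sperm, 24 high in sperm and 81 high in tail. For internal parts against LTRs, summed calls gave 67 called lower in sperm and 1 higher in tail. A minimum of 0.1 gave 144 lower and 12 higher in sperm, and 96 and 9 in tail. Positions with at least 5 calls gave 18 lower in tail. For 5′ against 3′ internal ends, summed calls gave 12 higher in sperm, 100 calls gave 3 lower in tail, and a minimum of 0.1 gave 14 lower and 16 higher in sperm and 18 and 19 in tail. For internal ends against flanks, a minimum of 0.1 gave 50 lower in sperm and 28 lower in tail. In bins of 100 bp the nearest 5′ bin had 0.862 in tail. Of the 46 calls between libraries, 35 were shared with those from summed calls. Of the named fragments, those of IAP 352, IAP 581 and IAP 680 lost their call from summed calls (differences 0.05, 0.09 and -0.18). That of IAP 431 lost it after 20 bp were taken off each end (-0.13). IAP 352 also lost it over shared positions (0.199) and over positions with at least 5 calls (0.02). With a minimum of 0.3 all of these lost it, and no called one reversed. Calls were gained by IAP 90 from summed calls (-0.32) and by the 5′ fragment of IAP 581 on the mean alone (0.21). The deeper IAPEY3-int fragment of IAP 653 gained one from positions with at least 5 calls (-0.20) and with a minimum of 0.1. The values describe sequence within reach of an LTR primer, in 1 mouse, on chromosome 1 and the start of chromosome 10, and PCR copies could not be removed.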

Other observations

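Of the 364 internal fragments, 73 lay in an intron and 4 overlapped an exon of a GENCODE M21 gene. Intronic fragments had a median of 0.787 for sperm and 0.837 for tail, and 6 of 73 were called lower in sperm (8.22%, against 7.44% over all 1129 fragments). The 287 intergenic fragments had medians of 0.755 and 0.839, and 36 were called lower in sperm (12.5%). The difference was not tested. Among IAPEz-int fragments, divergence from the consensus had a Spearman correlation of 0.036 with the sperm level and -0.09 with the tail level over 335 fragments.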
